A study of Mus musculus with 18 samples.

Results

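The comparison asked whether the change in gene expression of satellite cells 48 h after muscle injury differed between wild type and Sdc4-/- mice. For each of the 45101 probe sets of the array, the wild type change (48 h minus uninjured) minus the Sdc4-/- change was taken on the log2 scale. This value is called the genotype difference below. It is below 0 where a transcript moved lower at 48 h in wild type cells than in Sdc4-/- cells, and above 0 where it moved higher. The comparison held 11 of the 18 arrays of the series and every probe set. There were 2 arrays of wild type cells from uninjured muscle, and 3 arrays each of wild type cells at 48 h, Sdc4-/- cells from uninjured muscle and Sdc4-/- cells at 48 h. The remaining wild type uninjured array (replicate 3) was left out of the fit, since the study left out a wild type uninjured array, and its values are given beside the results.

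All cells came from the tibialis anterior muscle of female mice, whose age the labels give as 3 to 6 months and the sorting methods as 3 months. They were released with collagenase and were sorted on immunoreactivity to syndecan-3. Injury was by injection of barium chloride, and the RNA went through T7-based amplification before labelling. The wild type mice were of the strain C57Bl/6 x DBA2 and the Sdc4-/- mice, which lack the syndecan-4 gene, of the strain C57Bl/6, so genotype and strain cannot be told apart in any value below. The labels do not say whether arrays of a group came from separate animals, and the p-values measure only the spread between these samples. The number of arrays limits the precision, most of all for the 2 wild type uninjured arrays.

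Satellite cells are the resident stem cells of skeletal muscle. They lie quiescent under the basal lamina of the fibre, are marked by the transcription factor Pax7, and after injury enter the cell cycle and turn on the myogenic factor Myod1. Syndecan-3 and syndecan-4 are transmembrane heparan sulfate proteoglycans of these cells. They hold growth factors such as FGF and HGF at the cell surface, and syndecan-4 also signals from focal adhesions.

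The targeted gene was read first. On 1 of the 2 probe sets for Sdc4 the wild type uninjured arrays read 2.36 and 3.57 and the wild type 48 h arrays 5.59, 7.62 and 6.48, while the Sdc4-/- arrays read 2.50, 2.49 and 2.52 in uninjured muscle and 2.54, 2.60 and 2.52 at 48 h. The Sdc4-/- arrays thus lay near the lower end of the scale at both times, and wild type Sdc4 rose by 3.59 (limma adjusted p = 0.000712). Its genotype difference was 3.55 ± 0.67 (SE, adjusted p = 0.0118; adjusted p = 0.0605 without wild type uninjured replicate 1, where it was 2.94). The error given with each difference is this SE. The other probe set read 4.08 and 5.20 uninjured and 6.88, 8.0 and 8.11 at 48 h in wild type and 5.15, 4.07 and 3.39 uninjured and 4.15, 4.09 and 6.53 at 48 h in Sdc4-/- cells. It gave a genotype difference of 2.31 ± 1.03 (SE) with an adjusted p of 0.258, and 1 of the 3 Sdc4-/- 48 h arrays reached 6.53. Where these probe sets lie relative to the deleted part of the gene is not given in the sources used here. Sdc3, the sorted antigen, had a genotype difference of -0.13 ± 0.60 (adjusted p = 0.925), with arrays of the 2 times overlapping in both genotypes.

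Measures of the arrays themselves moved with the contrast. The 18 probe sets for hybridization controls, which read transcripts added to every sample, averaged 8.40 ± 0.76 (SD, n = 2) on the wild type uninjured and 12.09 ± 0.41 (SD, n = 3) on the wild type 48 h arrays. On the Sdc4-/- arrays they averaged 10.08 ± 0.31 and 9.70 ± 0.87 (SD, n = 3 each). Log2 values over 5 were read for 7416 ± 288 and 5354 ± 221 probe sets in wild type cells and 7608 ± 408 and 7571 ± 240 probe sets in Sdc4-/- cells, in the same order. The array that was left out had a control mean of 12.80 and 4512 probe sets above 5. The 3' minus 5' value of Actb, a sign of RNA quality and of amplification, was 6.17 ± 0.54 (SD, n = 2) and 4.28 ± 0.35 (SD, n = 3) in wild type cells, uninjured and at 48 h, and 5.33 ± 0.03 and 6.34 ± 0.28 (SD, n = 3 each) in Sdc4-/- cells. For Gapdh these values were 2.23 ± 0.55, 2.04 ± 0.51, 1.36 ± 0.56 and 2.72 ± 0.39. Higher controls, fewer detected transcripts and a smaller Actb value therefore marked the wild type 48 h arrays within the contrast. The part of the 3' minus 5' values in the genotype differences was not tested, and the part of the controls was tested only with the control mean as a covariate, given with the results.

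**Figure D1:**
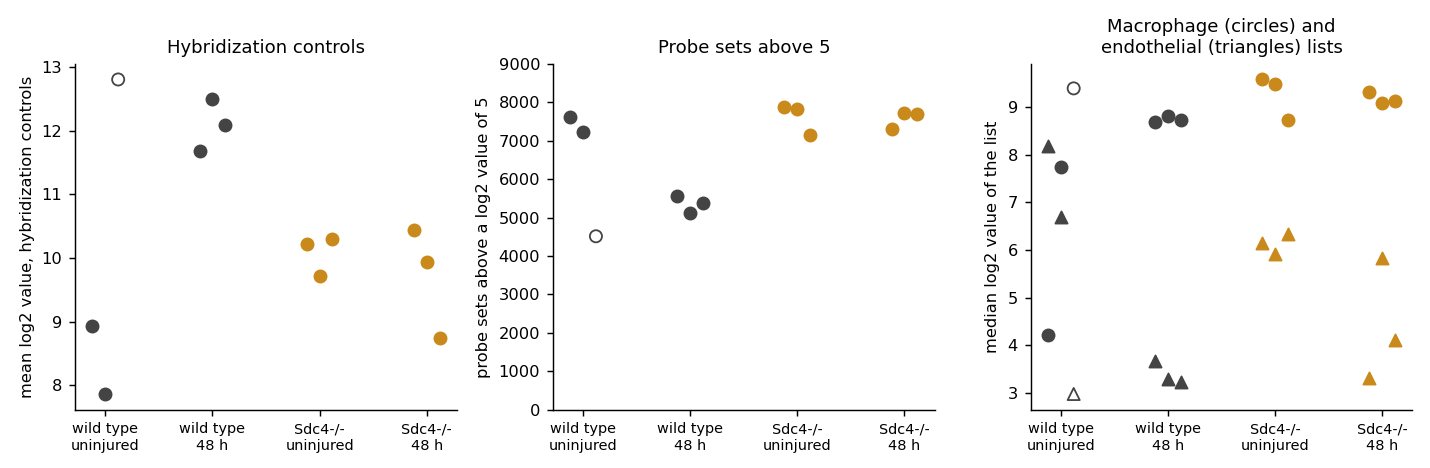
Array measures of the 4 groups, 1 point an array, with wild type in grey, Sdc4-/- in ochre and the left-out wild type uninjured array as an open symbol. The left panel gives the log2 mean over the hybridization controls, the middle panel how many probe sets exceeded 5, and the right panel the median log2 value of the monocyte and macrophage markers (circles) and of the endothelial markers (triangles). Among the 11 arrays of the contrast, those of wild type cells at 48 h had the highest controls and the fewest probe sets above 5.

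Markers of other cell types moved with the contrast as well. The median level of the 26 measured monocyte and macrophage markers was 4.21 and 7.75 on the 2 wild type uninjured arrays, 8.69, 8.81 and 8.73 on the wild type 48 h arrays, 9.58, 9.49 and 8.73 on the Sdc4-/- uninjured arrays and 9.31, 9.10 and 9.14 on the Sdc4-/- 48 h arrays. The wild type uninjured arrays were thus the lowest and differed from each other, and the left-out array read 9.40. For the 20 endothelial markers the medians were 8.18 and 6.68 on the wild type uninjured, 3.66, 3.28 and 3.22 on the wild type 48 h, 6.14, 5.92 and 6.34 on the Sdc4-/- uninjured and 3.32, 5.84 and 4.12 on the Sdc4-/- 48 h arrays, and 2.97 on the left-out array. Here the 2 wild type uninjured arrays were the highest. In bulk RNA of sorted cells, fewer cells of a type and less RNA per cell cannot be told apart, and the part of these cells in the genotype differences was not tested.

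In all, 527 probe sets (1.17%) had a genotype difference above 0 and 1315 (2.92%) one below 0 at an adjusted p under 0.05, from 1 limma fit of all groups. With 1 probe set for each of 18194 genes, 187 genes (1.03%) were called above 0 and 663 (3.64%) below 0. Among the 6279 genes whose mean log2 value reached 4, 58 (0.924%) were above and 310 (4.94%) below. The median difference was 0.070 over all genes and -0.52 over those 6279 genes, where 65.2% lay below 0. Over all genes 43.9% lay below 0. More genes were thus called for a lower change in wild type than in Sdc4-/- cells, which says nothing of which genotype was higher at 48 h. A gene was called by its probe set with the highest mean alone, so another probe set of a gene that was not called may have passed. Other probe sets of a called gene may likewise not have passed. Among the genes named below, for example, 1 of 5 probe sets was called for Lims1, Smc2 and Masp1, and 1 of 4 for Nbeal1, Sdc1, Cask and Csf1. It was 1 of 3 for Acvr1, Smad5, Plk4 and Mrtfb and 1 of 2 for Pax7, but 3 of 3 for Armcx2.

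Of the 663 genes called below 0, the wild type value went down by at least 1 log2 unit with Sdc4-/- values within 1 for 369, Sdc4-/- values went up by at least 1 with wild type within 1 for 85, and both happened together for 106. Of the 187 genes called above 0, wild type values went up alone for 47, Sdc4-/- values went down alone for 27 and both happened for 12. Both changes were within 1 log2 unit for 92 of the 187 and for 72 of the 663. A lower wild type value at 48 h was thus the most frequent form among the 663, and 2 small changes the most frequent among the 187. These counts are of fitted changes and were not each tested. Many calls were of faint transcripts, since 371 of the 663 and 139 of the 187 had no group mean of 6 or more.

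The array left out of the fit bears on most of these calls. On it, 620 of the 663 genes called below 0 read lower than on both retained wild type uninjured arrays. Of all 18194 genes 6436 did, and of the 6279 whose mean reached 4, 4093 did. Of the 663, 623 (94%) lay nearer to the wild type 48 h mean than to the uninjured mean, and of the 187 called above 0, 148 (79.1%) did. Over all genes 73.1% lay nearer to the 48 h mean, and over those whose mean reached 4, 59.2%. The calls were made with the retained arrays, so part of these counts follows from the choice of genes. With all 18 arrays 30 genes were called above and 50 below 0, each of them among the genes already counted. With the control mean as a covariate there were 10 and 122, and without wild type uninjured replicate 1 there were 63 and 409. Shifting the arrays to a common 75th percentile moved the median of all differences by 0.18 and gave 493 genes above and 582 below 0 (54.1% below, against 78%). A shift by the median of the expressed probe sets moved it by 0.92 and gave 8271 above and 550 below (6.24% below). The direction of a single gene is therefore relative to the other genes of the arrays.

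**Figure D2:**
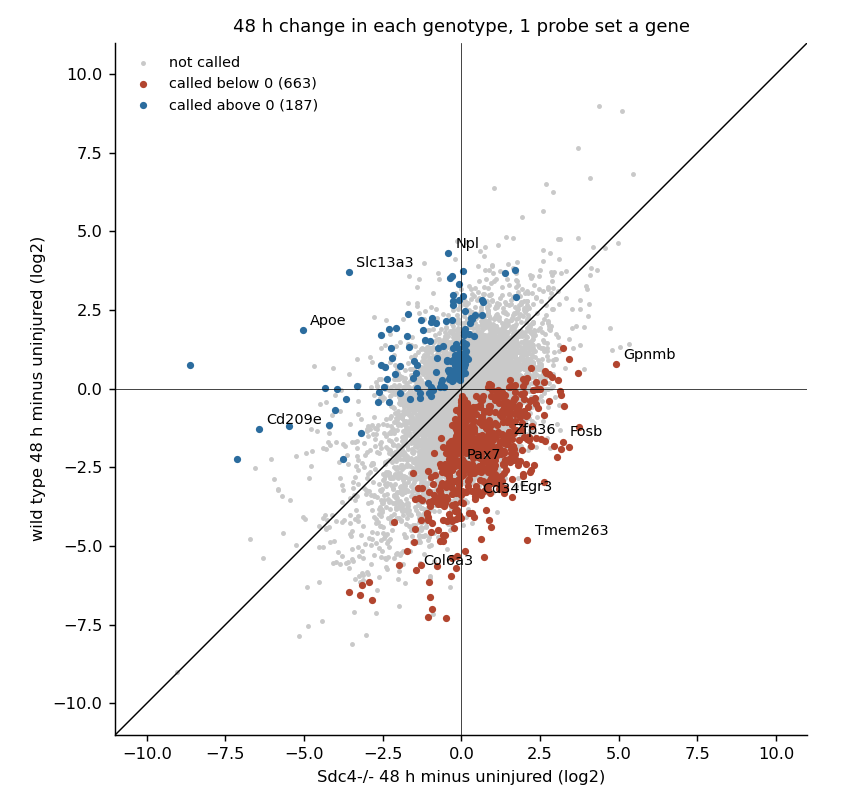
The change at 48 h in Sdc4-/- cells (horizontal axis) and in wild type cells (vertical axis), both as log2 48 h minus uninjured, with 1 point for each of 18194 genes and the line of equal change. The 663 genes called below 0 (red) lie under the line and the 187 called above 0 (blue) over it, with grey points not called.

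The immediate early genes, which growth factors and stress switch on quickly, held a gene that moved in opposite directions in the 2 genotypes. This was Zfp36, which encodes tristetraprolin, a protein that binds AU-rich mRNAs and speeds their decay. Of 26 measured immediate early genes 4 were called below 0 (Zfp36, Egr3, Fosb and Atf3) and none above. This is 15.4%, against 3.64% of all genes and 4.94% of the well expressed genes (mean of at least 4). Of the 26, 23 lay below 0, where 65.2% of the well expressed genes did, and the median was -1.28 against -0.52. Zfp36 read 9.32 and 9.03 on the wild type uninjured arrays and 7.69, 7.31 and 7.64 at 48 h, and 8.08, 8.08 and 7.51 on the Sdc4-/- uninjured arrays and 9.48, 9.46 and 9.05 at 48 h. It fell in wild type cells (change -1.62, adjusted p = 0.000503) and rose in Sdc4-/- cells (change 1.44, adjusted p = 0.000946), and within each genotype no 48 h array overlapped an uninjured one. The genotype difference was -3.06 ± 0.29 (SE, adjusted p = 0.000128), or -2.53 with all 18 arrays (adjusted p = 0.0444), where the left-out array read 7.56, and -2.90 with the covariate (adjusted p = 0.0317).

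Egr3, a zinc finger transcription factor, read 7.77 and 7.83 on the wild type uninjured arrays, 4.38, 4.53 and 4.19 on the wild type 48 h arrays, 5.49, 5.10 and 4.01 on the Sdc4-/- uninjured arrays and 6.82, 6.23 and 6.37 on the Sdc4-/- 48 h arrays. The fall in wild type cells (-3.43, adjusted p = 0.00229) passed the test and the Sdc4-/- change of 1.61 did not (adjusted p = 0.114), with a difference of -5.04 ± 0.76 (adjusted p = 0.00347). Fosb, a subunit of the AP-1 factor, differed more through the Sdc4-/- cells. It read 4.84 and 4.51 uninjured and 3.58, 2.55 and 2.85 at 48 h in wild type cells and 3.65, 3.27 and 3.95 uninjured and 6.78, 7.22 and 6.53 at 48 h in Sdc4-/- cells, so that the highest values were all of Sdc4-/- cells at 48 h. Its rise in Sdc4-/- cells was 3.22 (adjusted p = 0.00391), beside a wild type change of -1.69 that did not pass the test (adjusted p = 0.0837). The difference of Fosb was -4.91 ± 0.79 (adjusted p = 0.00482). Atf3, a stress-induced factor, had a difference of -3.37 ± 0.85 (adjusted p = 0.0481) and was called in only 4 of the 17 fits with an array left out, up to an adjusted p of 0.143 without wild type uninjured replicate 1. With all 18 arrays Egr3 (adjusted p = 0.423), Fosb (0.0965) and Atf3 (0.251) were not called, and the left-out array read 3.49 for Egr3 and 2.32 for Fosb.

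Satellite cell genes were called below 0 as well. Of 30 measured myogenic and satellite cell genes 7 were called below 0, which is 23.3% against 3.64% of all genes, and none above, although the median was -0.13 (0.79 with arrays shifted by the median of the expressed probe sets). They were Pax7, Cd34, Chodl, Myf5, Spry1, Hey1 and, named after its values were seen, Mef2c. Of the 30 genes 8 had a mean log2 value of at least 4, and 1 of the 7 calls was among these 8. Most of the 7 were thus faint over the arrays, and Spry1 and Hey1 are counted again in lists below. Pax7 read 5.15 and 4.59 on the wild type uninjured arrays and 2.38 to 2.62 on the other 9 arrays of the contrast. Its wild type change of -2.41 (adjusted p = 2.84e-06) faced a Sdc4-/- change of -0.07 (adjusted p = 1), and the difference was -2.35 ± 0.20 (adjusted p = 8.05e-05). In Sdc4-/- cells Pax7 was near the lower end of the scale before injury, so that no fall of this size could be read there.

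Wild type falls past the test, with no such Sdc4-/- change, were also found for Cd34, Myf5 and Chodl. Cd34, a surface sialomucin, read 5.97 and 5.99 on the wild type uninjured arrays and 2.49, 2.49 and 2.48 at 48 h, against 2.42, 3.62 and 2.42 uninjured and 2.45, 4.42 and 2.92 at 48 h in Sdc4-/- cells (difference -3.94 ± 0.62, adjusted p = 0.00422). Myf5, a myogenic determination factor, read 5.08 and 4.35 uninjured and 3.14, 3.29 and 3.57 at 48 h in wild type and 2.82, 2.82 and 2.8 uninjured and 2.81, 2.8 and 2.61 at 48 h in Sdc4-/- cells (difference -1.31 ± 0.26, adjusted p = 0.0153). The 2 wild type uninjured arrays were the highest for both genes. Chodl, a membrane lectin, had a difference of -1.97 ± 0.27 (adjusted p = 0.00204). Myod1 lay between 2.29 and 3.05 on the 11 arrays and Myog, its later partner in differentiation, between 2.49 and 2.73, with differences of 0.17 ± 0.25 and 0.13 ± 0.12 (adjusted p = 0.748 and 0.594). At these levels neither factor of activated myoblasts was well above the lower end of the scale at 48 h in either genotype. On the left-out array Pax7 read 2.47, Cd34 2.49 and Myf5 3.31, and with all 18 arrays their adjusted p-values were 0.529, 0.461 and 0.662. With the covariate they were 0.0183, 0.202 and 0.0452. Without wild type uninjured replicate 1, Myf5 had an adjusted p of 0.0527 and a difference of -0.95.

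**Figure D3:**
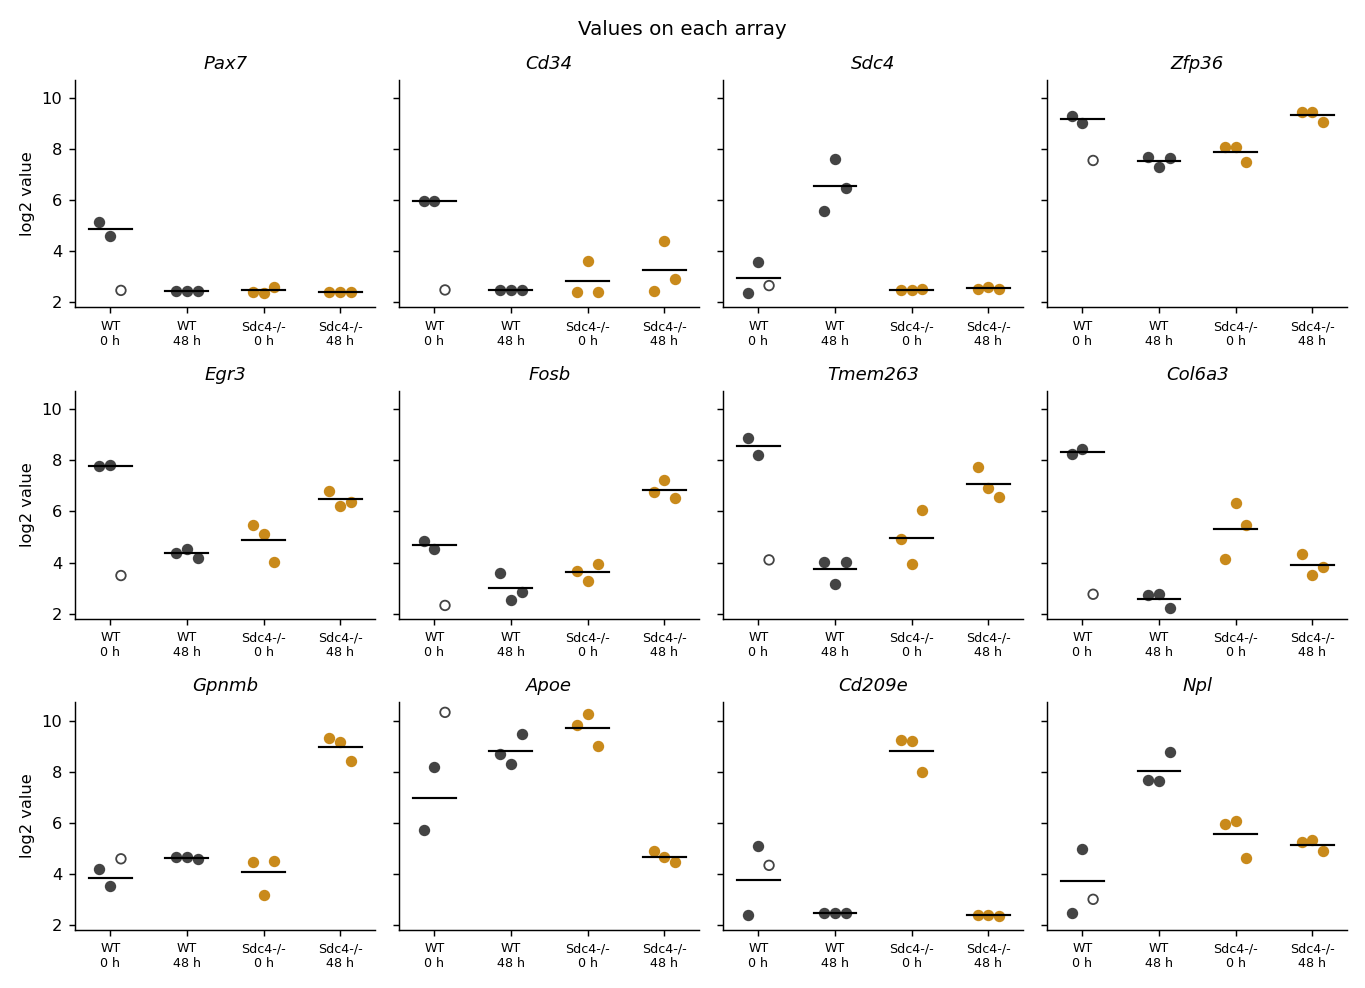
Log2 values of 12 genes on each array of the 4 groups (WT, wild type, in grey; Sdc4-/- in ochre), with the group mean as a bar and the left-out wild type uninjured array as an open circle that is not in the mean. For Pax7, Cd34, Egr3 and Col6a3 the 2 retained wild type uninjured arrays stood above all other arrays shown, while for Fosb and Gpnmb the Sdc4-/- 48 h arrays did.

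Sdc1 gave 1 of the 15 largest differences below 0. This syndecan read 6.89 and 5.81 uninjured and 6.34, 3.11 and 3.05 at 48 h in wild type cells and 2.64, 4.07 and 4.2 uninjured and 6.61, 6.29 and 7.12 at 48 h in Sdc4-/- cells. The Sdc4-/- arrays did not overlap between times and the wild type arrays did, but neither change passed its own test (adjusted p = 0.0533 and 0.136), and the difference was -5.22 ± 1.20 (adjusted p = 0.0319). Its call was kept in 10 of 17 fits with an array left out, with an adjusted p up to 0.131 without wild type uninjured replicate 1. Of 25 syndecans, glypicans and heparan sulfate enzymes (8% called below 0, against 3.64%) only Sdc1 and Hs3st1, a heparan sulfate sulfotransferase with a difference of -0.62 ± 0.09 (0.30 with arrays shifted by the median of the expressed probe sets), were called below 0, and none above. The list of syndecan-4 signalling and focal adhesion genes held 29 measured genes, of which 2 were called below 0 (6.90%) and none above, with a median of -0.52 (0.40 under that shift). Lims1, which links integrin-linked kinase to the cytoskeleton, read 7.25 and 6.78 uninjured and 5.73, 5.17 and 4.96 at 48 h in wild type and 6.19, 5.88 and 6.23 uninjured and 7.47, 7.30 and 7.56 at 48 h in Sdc4-/- cells. It fell in the first (-1.73, adjusted p = 0.0125) and rose in the second (1.34, adjusted p = 0.048), with no overlap between times. The difference of -3.07 ± 0.52 (adjusted p = 0.0063) was called in every fit with an array left out but not with all 18 arrays (adjusted p = 0.671). Cask, which binds the tails of syndecans, had -1.77 ± 0.45 (adjusted p = 0.0477), kept in 2 of 17 such fits and up to 0.207 without wild type uninjured replicate 1.

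In the FGF and HGF pathway 3 of 27 measured genes were called below 0 (11.1%, against 3.64% of all genes) and none above (median -0.38, or 0.54 under that shift). None of the 3 was among the 10 genes of the list with a mean of at least 4. Fgfr3, an FGF receptor, had a difference of -2.46 ± 0.59 and Spry1, a feedback inhibitor of ERK signalling kept in quiescent satellite cells, one of -2.04 ± 0.52. Both came from wild type falls (-3.10 and -2.63, adjusted p = 0.000883 and 0.00114). Both were lower in uninjured Sdc4-/- than uninjured wild type cells (-2.60 and -1.86, adjusted p = 0.00538 and 0.0191). Dusp4, an ERK phosphatase, differed through the Sdc4-/- cells, where it read 2.61, 2.58 and 2.56 before injury and 5.71, 5.06 and 4.97 at 48 h (rise 2.66, adjusted p = 0.000462), against 2.68 and 2.57 uninjured and 2.69, 2.74 and 4.10 at 48 h in wild type cells. Its difference was -2.11 ± 0.48 (adjusted p = 0.0307). Met, the HGF receptor, read 4.26 and 4.67 uninjured and 5.62, 3.75 and 3.62 at 48 h in wild type and 5.0, 3.52 and 4.64 uninjured and 7.20, 6.38 and 7.44 at 48 h in Sdc4-/- cells, and its difference of -2.76 ± 1.32 did not pass the test (adjusted p = 0.298). Hey1 was the 1 gene called of 21 in the Notch pathway (4.76%, against 3.64% of all genes), with a difference of -2.67 ± 0.67 (adjusted p = 0.0469). Fgfr3, Spry1, Dusp4 and Hey1 kept their calls in 5, 3, 10 and 3 of 17 fits with an array left out, and none of the 4 with all 18 arrays.

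The TGF-beta and BMP pathway had 7 of 29 measured genes called below 0, or 24.1% against 3.64% of all genes, none above, and a median of -1.56. Ligands, receptors and a signal transducer were among them. Bmp4, a BMP ligand, read 5.07 and 4.24 on the wild type uninjured arrays and 2.34 to 2.84 on the other 9 arrays of the contrast (difference -1.91 ± 0.26, adjusted p = 0.00191). Tgfb3 read 4.06 and 3.67 and then 2.23 to 2.68 (-1.34 ± 0.19, adjusted p = 0.00243). Acvr1, a type I BMP receptor, read 6.74 and 6.31 uninjured and 4.57, 4.40 and 3.69 at 48 h in wild type cells and 5.16, 5.21 and 4.73 uninjured and 4.87, 6.31 and 6.56 at 48 h in Sdc4-/- cells (-3.19 ± 0.54, adjusted p = 0.00642). Smad5, which carries BMP signals to the nucleus, had -2.04 ± 0.35 (adjusted p = 0.00693). For these 4 genes the wild type falls passed the test and the Sdc4-/- changes did not. In uninjured Sdc4-/- cells Bmp4 and Tgfb3 were near the lower end of the scale, so that no such fall could be read there. Uninjured Sdc4-/- minus wild type was -2.09 for Bmp4, -1.52 for Tgfb3 and -1.93 for Smad5 (adjusted p = 6.57e-05, 6.57e-05 and 0.00112). At 48 h it was -0.18, -0.18 and 0.11 (adjusted p = 0.628, 0.475 and 0.848). For Acvr1 it was -1.49 uninjured (adjusted p = 0.0676) and 1.70 at 48 h (0.0189). All 4 were called in every fit with an array left out, and with all 18 arrays their adjusted p-values ran from 0.279 to 0.677.

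Matrix genes held calls below 0 too. Of 27 collagens and basement membrane genes 3 were called below 0 (11.1%, against 3.64% of all genes and 4.94% of the well expressed genes). Of the 27, 25 lay below 0 (against 65.2% of the well expressed genes), with a median of -1.73 (wild type change -2.96, Sdc4-/- change -0.74). Col6a3, a chain of the microfibrillar collagen VI of the satellite cell niche, read 8.24 and 8.43 uninjured and 2.74, 2.76 and 2.21 at 48 h in wild type cells and 4.14, 6.35 and 5.47 uninjured and 4.32, 3.52 and 3.82 at 48 h in Sdc4-/- cells. The difference was -4.34 ± 0.84 (adjusted p = 0.0138), it turned to 0.16 with all 18 arrays and the covariate together, and the left-out array read 2.76. Col15a1 (-2.02 ± 0.39) and the laminin chain Lamc1 (-1.37 ± 0.33) were the others, the latter called in 6 of 17 fits with an array left out. Aspn, a small leucine-rich proteoglycan, read 10.12 and 8.49 uninjured and 3.57, 3.78 and 3.76 at 48 h against 4.87, 4.63 and 6.16 uninjured and 3.39, 5.14 and 3.32 at 48 h (-4.33 ± 0.78, adjusted p = 0.00948) and was the 1 gene called of 32 in its list (3.12%). Ccn1, a matricellular protein, had 1 of the 15 largest differences (-5.62 ± 1.07, adjusted p = 0.0126, or 0.0582 without wild type uninjured replicate 1, where it was -5.26). With all 18 arrays Col6a3, Aspn and Ccn1 were not called (adjusted p = 0.756, 0.728 and 0.641).

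Endothelial and mural markers lay below 0 beside the matrix genes, with no call. Of the 20 endothelial markers 20 lay below 0 with a median of -2.14, and 14 of 15 pericyte and smooth muscle markers did with a median of -1.78, but no gene of either list passed the test on the probe set used. With all 18 arrays these medians were -0.54 and -0.61. Fabp4, abundant in capillary endothelium, read 14.17 and 12.84 uninjured and 10.95, 11.41 and 9.25 at 48 h in wild type and 12.29, 11.65 and 12.65 uninjured and 10.94, 11.66 and 10.21 at 48 h in Sdc4-/- cells (difference -1.71 ± 1.10, adjusted p = 0.438). Cd93, another endothelial marker, moved up in Sdc4-/- cells, from 6.94, 6.82 and 7.30 to 9.53, 9.63 and 9.70 (2.60, adjusted p = 0.279). Its wild type change was -1.04 (adjusted p = 0.622) and its difference -3.64 ± 1.66 (adjusted p = 0.27). Rgs5, a pericyte marker, had -1.15 ± 1.65 (adjusted p = 0.738), and 1 of its 4 probe sets was called below 0. Of 19 fibroblast and fibro-adipogenic markers Dpp4 alone was called (5.26%, against 1.03% of all genes), above 0 at 0.86 ± 0.20, with no value above 4.05. The median of that list was -0.79. Aplnr and S1pr3, receptors that blood vessels express, were among the 15 largest differences below 0 (-6.22 ± 1.42 and -6.06 ± 1.43, adjusted p = 0.0309 and 0.0353), and were called in 10 and 9 of 17 fits with an array left out.

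The remaining largest differences below 0 were of genes with varied roles. Tmem263, a membrane protein, read 8.88 and 8.23 uninjured and 4.01, 3.16 and 4.04 at 48 h in wild type cells and 4.93, 3.93 and 6.07 uninjured and 7.74, 6.91 and 6.57 at 48 h in Sdc4-/- cells. It fell in wild type (-4.82, adjusted p = 0.000351) and rose in Sdc4-/- cells (2.10, adjusted p = 0.0466), with the largest difference below 0 of the genes named by the rule (-6.91 ± 0.81, adjusted p = 0.000635). Its other probe set was not called. For Fnbp1l, an actin and membrane curvature regulator (-5.53 ± 0.84), Mrtfb, a coactivator of serum response factor (-5.25 ± 0.75), Ccnyl1, a cyclin-like protein (-5.17 ± 0.61), Lgalsl (-5.65 ± 0.91) and Nbeal1 (-5.35 ± 0.52), wild type values fell and the Sdc4-/- change did not pass the test, with adjusted p-values of the difference from 0.000172 to 0.00483. Uninjured Sdc4-/- minus wild type was -3.87 for Lgalsl and -3.57 for Nbeal1 (adjusted p = 0.00656 and 0.000191), and 1.77 for each at 48 h (0.123 and 0.0122). For Fnbp1l, Mrtfb and Ccnyl1 it did not pass the test uninjured (adjusted p = 0.301, 0.612 and 0.526). At 48 h it was 4.04, 4.36 and 4.35 for these 3 (adjusted p = 0.00179, 0.000673 and 0.000191). Plk4, the kinase that starts centriole duplication, differed more through a rise in Sdc4-/- cells from 3.96, 4.63 and 3.15 to 7.52, 7.45 and 7.06 (3.43, adjusted p = 0.00877), with a difference of -5.28 ± 0.97 (adjusted p = 0.0103). Its wild type change of -1.85 did not pass the test (adjusted p = 0.119). These 7 genes were called in every fit with an array left out and none with all 18 arrays. Armcx2 (-6.80 ± 1.71), the protease Prss23 (-6.06 ± 1.51), the lipid desaturase Scd2 (-5.42 ± 1.29) and Tent5c (-5.60 ± 1.24), a poly(A) polymerase, were called in 4, 4, 9 and 11 of those 17 fits, and lost the call with wild type uninjured replicate 1 left out, at adjusted p-values up to 0.178.

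The largest differences above 0 included genes known from myeloid and other blood cells. Apoe, an apolipoprotein that macrophages make in quantity, read 5.72 and 8.17 on the wild type uninjured arrays, 8.67, 8.30 and 9.48 on the wild type 48 h arrays, 9.81, 10.27 and 9.0 on the Sdc4-/- uninjured arrays and 4.90, 4.65 and 4.44 on the Sdc4-/- 48 h arrays. It fell in Sdc4-/- cells (change -5.03, adjusted p = 0.000211), the wild type change of 1.87 did not pass the test (adjusted p = 0.0633), and the difference was 6.90 ± 0.81 (adjusted p = 0.000635; with all 18 arrays 5.77, adjusted p = 0.0465; with the covariate 7.73, adjusted p = 0.0363). The left-out wild type uninjured array read 10.32 for Apoe, above every uninjured array of the fit. Cd209e, a lectin of the DC-SIGN family, read 9.24, 9.18 and 7.98 on the Sdc4-/- uninjured and 2.39, 2.38 and 2.34 on the Sdc4-/- 48 h arrays. On the wild type arrays it read 2.38 and 5.09 uninjured and 2.44, 2.45 and 2.44 at 48 h, with a difference of 5.14 ± 0.76 (adjusted p = 0.00299, 0.00773 with all 18 arrays and 0.0608 with the covariate). High values before injury in Sdc4-/- cells, lost at 48 h, were thus the form of Cd209e, and the same fall passed the test for its relative Cd209g (-5.47), the macrophage lectin Mgl2 (-7.13) and the eosinophil ribonucleases Rnase2a (-8.64) and Ear3 (-4.33). Genes of the eosinophil ribonuclease family and of the Cd209 family have close copies that can share probes.

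Rnase2a had the largest difference of all named genes and also widely spread arrays. It read 3.38 and 8.15 uninjured and 4.05, 7.70 and 7.80 at 48 h in wild type cells and 12.49, 11.08 and 10.65 uninjured and 2.83, 2.66 and 2.82 at 48 h in Sdc4-/- cells (9.39 ± 2.06, adjusted p = 0.0256, or 0.115 without wild type uninjured replicate 1). Differences of 4.28 ± 1.05 for Cd209g, 4.88 ± 1.15 for Mgl2 and 4.34 ± 0.95 for Ear3 were called in 2, 8 and 12 of 17 fits with an array left out, against 11 for Rnase2a. The left-out wild type uninjured array read 11.64 for Rnase2a and 8.36 for Mgl2, above both retained wild type uninjured arrays. Cd2, an adhesion receptor of T and NK cells, read 3.05 and 3.48 uninjured and 3.13, 3.24 and 3.13 at 48 h in wild type and 6.32, 5.57 and 5.78 uninjured and 3.84, 3.08 and 2.91 at 48 h in Sdc4-/- cells (2.52 ± 0.37, adjusted p = 0.00268), and 5.63 on the left-out array. H2-Ob, part of a class II peptide-loading regulator, had 1.77 ± 0.41 (adjusted p = 0.0332, called in 8 of the 17 fits).

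Of the other genes above 0, some differed through the wild type cells. Npl, an enzyme of sialic acid breakdown, read 2.45 and 4.97 uninjured and 7.67, 7.62 and 8.76 at 48 h in wild type and 5.94, 6.08 and 4.62 uninjured and 5.23, 5.31 and 4.87 at 48 h in Sdc4-/- cells, so that the wild type 48 h arrays were the highest (rise 4.31, adjusted p = 0.00089; difference 4.72 ± 0.83, adjusted p = 0.00781, 0.013 with all 18 arrays and 0.118 with the covariate). Rises in wild type cells with no Sdc4-/- change past the test were also found for the chemokine Ccl6 (3.58), the tubulin Tuba4a (3.51) and the phosphatase inhibitor Ppp1r14b (3.76), with differences of 3.88 ± 0.99, 3.87 ± 0.72 and 3.70 ± 0.65. Ppp1r14b was also called with all 18 arrays (adjusted p = 0.025) and with the covariate (0.0117), while Ccl6 was called in 1 of the 17 fits with an array left out and Tuba4a in 16. For Ccl6 the left-out array read 12.18, against 7.42 and 10.9 on the retained wild type uninjured arrays. For Tuba4a it read 6.58 (against 7.07 and 7.66) and for Ppp1r14b 5.20 (against 4.62 and 4.53). The sodium-dicarboxylate transporter Slc13a3 and Il6ra, the receptor for interleukin-6, rose in wild type and fell in Sdc4-/- cells. Slc13a3 read 4.18 and 6.68 uninjured and 8.33, 8.87 and 10.19 at 48 h in wild type and 8.12, 7.90 and 8.56 uninjured and 4.32, 4.98 and 4.57 at 48 h in Sdc4-/- cells, a change of 3.70 (adjusted p = 0.00551) against one of -3.57 (adjusted p = 0.00651) and a difference of 7.27 ± 0.96 (adjusted p = 0.00143, 0.0167 with all 18 arrays and 0.104 with the covariate). Il6ra read 2.34 and 4.02 uninjured and 5.14, 5.38 and 6.18 at 48 h against 7.82, 6.86 and 7.41 uninjured and 5.91, 5.70 and 5.36 at 48 h, with a difference of 4.09 ± 0.65 (adjusted p = 0.00453, 0.259 with all 18 arrays and 0.155 with the covariate). In both genes the uninjured Sdc4-/- arrays were above the 2 retained wild type ones, a contrast that did not pass the test for Slc13a3 (adjusted p = 0.0545), and the left-out array read 7.71 for Slc13a3 and 6.02 for Il6ra. Nucb2 (4.27 ± 0.80), Wfdc21 (4.2 ± 0.92) and Fxyd2 (3.95 ± 0.83), the other named genes above 0, were called in 17, 12 and 16 of those fits. Nucb2 (-2.56, adjusted p = 0.0155) and Fxyd2 (-3.96, adjusted p = 0.00137) fell in Sdc4-/- cells. Their wild type changes of 1.71 and -0.0077 did not pass the test (adjusted p = 0.0832 and 0.994). For Wfdc21 neither the wild type change of 1.90 (adjusted p = 0.0935) nor the Sdc4-/- change of -2.31 (adjusted p = 0.056) passed.

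As a list, monocyte and macrophage markers had no called gene of 26, with 25 above 0 and a median of 2.43, made of a wild type change of 2.84 and a Sdc4-/- change of 0.21. Without wild type uninjured replicate 1 this median was 0.96, and without replicate 2 it was 4.11, so the size rests on which of the 2 arrays is kept. Lyz1, a lysozyme of myeloid cells whose near copy Lyz2 can share probes, read 11.68 and 13.87 uninjured and 14.58, 14.33 and 14.42 at 48 h in wild type and 15.08, 15.10 and 14.79 uninjured and 14.69, 14.87 and 14.16 at 48 h in Sdc4-/- cells (difference 2.08 ± 1.76, adjusted p = 0.552). Neutrophil markers had none called of 19 and a median of 2.52. S100a8, a neutrophil alarmin, read 8.46 and 8.96 uninjured and 8.68, 9.29 and 10.30 at 48 h in wild type and 11.67, 11.36 and 12.71 uninjured and 7.05, 8.01 and 6.64 at 48 h in Sdc4-/- cells (5.39 ± 2.34, adjusted p = 0.247). Chil3, the other of the 2 neutrophil markers with the highest mean, moved up in both genotypes. Its change was 6.51 in wild type (adjusted p = 0.00384) and 2.70 in Sdc4-/- cells (adjusted p = 0.222), with a difference of 3.81 ± 1.58 (adjusted p = 0.225). Of 24 chemokines Ccl6 alone was called (4.17% above 0, against 1.03% of all genes), with a median of 1.54. The T, B and NK cell list (16 genes) had only Cd2 called (6.25%) and the MHC class II list (13 genes) only H2-Ob (7.69%), and no erythroid marker of 7 was called.

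Interferon-stimulated genes leaned below 0. Of the list, 3 of 32 were called below 0 (9.38%, against 3.64% of all genes and 4.94% of the well expressed genes) and none above. Of the 32, 29 lay below 0, where 65.2% of the well expressed genes did, and the median was -1.45 against -0.52 (wild type change -0.91, Sdc4-/- change 0.34). Ddx58, the cytosolic RNA sensor RIG-I, read 4.75 and 4.10 uninjured and 2.72, 2.44 and 2.68 at 48 h in wild type and 3.73, 4.47 and 3.46 uninjured and 4.81, 4.63 and 5.13 at 48 h in Sdc4-/- cells (-2.77 ± 0.54, adjusted p = 0.0142). Ifit2 and Ifit3, which bind foreign RNA, had -3.06 ± 0.71 and -2.92 ± 0.73 (adjusted p = 0.033 and 0.0454). At 48 h the Sdc4-/- arrays lay above all wild type arrays for the 3 genes, which were called in 16, 10 and 6 of 17 fits with an array left out and in none with all 18 arrays. In the list of inflammatory cytokines and acute phase genes (31) Il6ra was called above 0 and Csf1, the macrophage growth factor, below 0 (-3.01 ± 0.76, adjusted p = 0.0481, kept in 3 of the 17). Each is 3.23% of that list, against 1.03% of all genes called above 0 and 3.64% below. Complement genes (16, 12.5% called below 0, against 3.64% of all genes) held Masp1 (-1.87 ± 0.31) and C1s1 (-3.09 ± 0.70), both below 0 and neither with a mean of at least 4.

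Cell cycle lists held few members that were called. Of 37 mitosis genes Birc5 and Smc2 were called below 0 (5.41%, against 3.64% of all genes), and of 36 DNA replication genes Rrm1 was (2.78%), with medians of 0.16 and -0.03 for the lists. Birc5, the chromosomal passenger survivin, read 2.64 and 2.60 uninjured and 2.88, 2.71 and 2.70 at 48 h in wild type and 2.61, 2.61 and 2.76 uninjured and 3.74, 3.66 and 3.25 at 48 h in Sdc4-/- cells, with a difference of -0.74 ± 0.16 (adjusted p = 0.0224) at low levels, which was 0.18 with arrays shifted by the median of the expressed probe sets. Smc2, of condensin, had -2.40 ± 0.54 and Rrm1, of ribonucleotide reductase, -2.75 ± 0.69 (adjusted p = 0.0286 and 0.046). In all 3 the Sdc4-/- 48 h arrays were above every wild type 48 h array, and they were called in 14, 13 and 5 of 17 fits with an array left out. Among 20 CDK inhibitors and pocket proteins the antiproliferative Tob1 (-3.95 ± 0.87) and the growth arrest gene Gas1 (-3.43 ± 0.83) were called below 0 (10%, against 3.64% of all genes). They kept the call in 13 and 8 of the 17. No gene of 20 G1 cyclins, CDKs and E2F factors was called (median -0.37). Ccnd2, the G1 cyclin D2, had 1 of its 7 probe sets called below 0, and on the one used it had -1.58 ± 0.63 (adjusted p = 0.206).

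RNA handling lists were called at about the share of all genes (3.64% below 0). Zfp36 was the 1 gene of 37 mRNA stability regulators (2.70%), Sf3a1 (-1.48 ± 0.35) of 31 spliceosome genes (3.23%) and Srsf11 (-3.0 ± 0.75) of 29 SR proteins and hnRNPs (3.45%), all below 0. Among 34 translation factors Eif4a2, Eif5b and Eif3b were called below 0 (8.82%) and Eef1d above (2.94%, against 1.03% of all genes). Eif4a2, a helicase of initiation, read 8.21 and 7.33 uninjured and 5.67, 4.45 and 5.94 at 48 h in wild type and 5.56, 6.48 and 6.15 uninjured and 7.40, 7.79 and 7.11 at 48 h in Sdc4-/- cells (-3.79 ± 0.74, adjusted p = 0.0144, or 0.0709 without wild type uninjured replicate 1). Eef1d, of the elongation factor complex, rose in wild type cells by 1.29 (adjusted p = 0.0282) and had a difference of 2.04 ± 0.46 (adjusted p = 0.0289). Eif5b had -1.58 ± 0.34 and Eif3b -3.09 ± 0.71. No cytosolic ribosomal protein gene of 42 was called, although 36 lay above 0 with a median of 0.86. Rps29 read 13.80 and 13.44 uninjured and 13.80, 13.73 and 13.74 at 48 h in wild type and 13.99, 13.96 and 13.67 uninjured and 13.44, 13.49 and 13.30 at 48 h in Sdc4-/- cells (0.60 ± 0.24, adjusted p = 0.199). The sign of 20 of the 39 list medians changed when arrays were shifted by the median of the expressed probe sets, SR proteins and hnRNPs (from -0.80 to 0.12) among them, but not those of the immediate early (-0.36), TGF-beta and BMP (-0.64), interferon (-0.53), collagen (-0.81), ribosomal or macrophage lists.

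Metabolic and structural lists were mostly flat in calls. Oxidative phosphorylation had 1 gene above 0, Ndufb6 (1.71 ± 0.35, adjusted p = 0.0181), and 1 below, Ndufs1 (-2.64 ± 0.58, adjusted p = 0.0253), of 66, both subunits of complex I. Each is 1.52% of that list, against 1.03% of all genes called above 0 and 3.64% below. Of 31 proteasome genes Psmc5 (3.23%, against 3.64%) was called below 0 (-1.55 ± 0.31), as it rose in Sdc4-/- cells (2.20, adjusted p = 7.08e-05). None was called of 19 glycolysis, 27 endoplasmic reticulum folding, 23 chaperone, 28 lysosome, 27 actin regulator, 35 sarcomere and muscle fibre or 11 Schwann and tendon genes. The medians of these lists ran from -0.65 for the chaperones to 0.70 for glycolysis. Fmod, a proteoglycan of tendon, was an example of a large fall in both genotypes, from 11.14 and 13.57 to 3.19, 3.36 and 3.51 in wild type and from 11.38, 12.50 and 11.46 to 2.82, 2.81 and 2.57 in Sdc4-/- cells, with a difference of 0.04 ± 0.76 (adjusted p = 0.981).

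**Figure D4:**
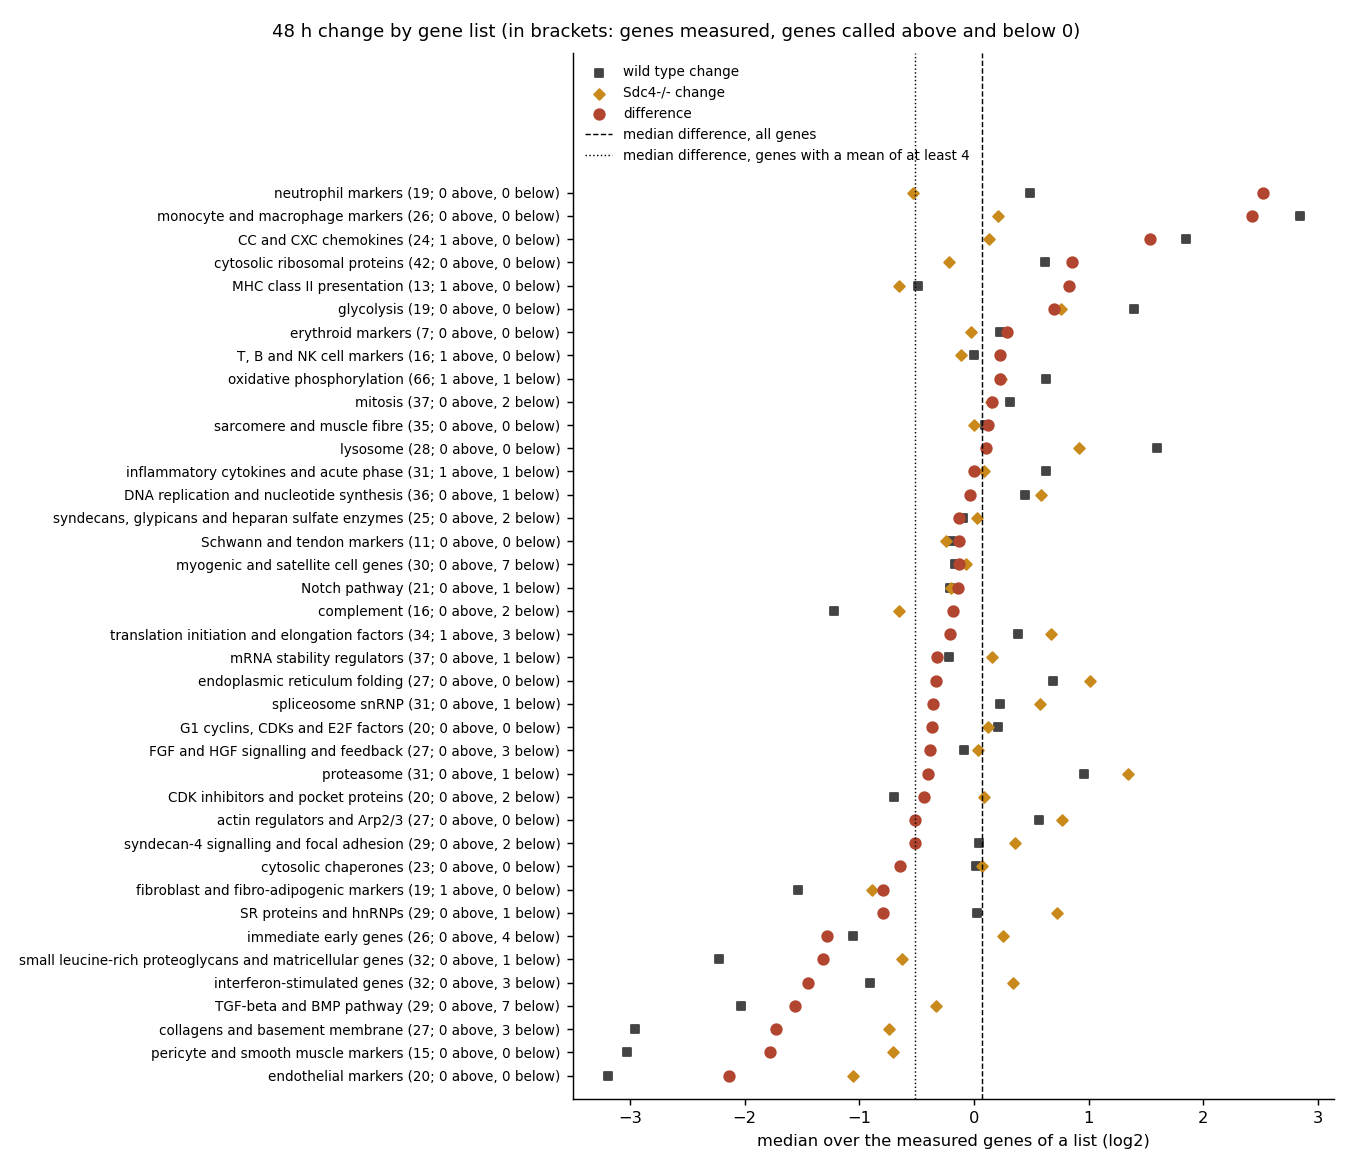
Median 48 h change over the measured genes of each of 39 lists, in wild type cells (grey squares) and Sdc4-/- cells (ochre diamonds), and the median genotype difference (red circles), on the log2 scale, with the number of genes measured and called above and below 0 in brackets. The dashed line marks the median difference over all genes (0.070) and the dotted line that over genes whose mean reached 4 (-0.52), and the lists run from endothelial markers (-2.14) to neutrophil markers (2.52).

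A set of 47 probe sets had been picked on these same arrays for a change at 48 h in wild type cells that Sdc4-/- cells lacked, so their direction is no independent evidence. Their median wild type change was -1.81 and their median Sdc4-/- change 0.0016, with 32 called below 0 and 2 above. H2-K1, a class I molecule, and H2-Ea, a class II chain that C57Bl/6 mice do not express, had the largest differences. H2-Ea read 5.84 and 8.65 uninjured and 2.67, 2.50 and 2.68 at 48 h in wild type cells 2.59, 2.50 and 2.60 uninjured and 2.59, 2.51 and 2.59 at 48 h in Sdc4-/- cells, and 9.36 on the left-out wild type array (-4.63 ± 0.72, adjusted p = 0.00409). The Sdc4-/- arrays thus lay at the lower end of the scale at both times for a gene whose expression differs between the strains. H2-K1 read 7.97 and 7.81 uninjured and 3.40, 2.35 and 2.67 at 48 h in wild type and 8.97, 8.98 and 8.12 uninjured and 8.80, 8.79 and 8.72 at 48 h in Sdc4-/- cells (-5.17 ± 0.77, adjusted p = 0.00299), and 1 of its 4 probe sets was called. The others of the 4 largest, a probe set with no gene symbol here (-4.2 ± 1.26) and Col3a1, a fibrillar collagen (-3.67 ± 0.97), did not pass the adjusted threshold (adjusted p = 0.0893 and 0.0564).

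A few genes kept their call under the alternatives that cost the most calls. Of the 850 genes called, 13 below 0 and 4 above were called both with all 18 arrays and with the covariate, and Zfp36, Apoe and Ppp1r14b were among them. In all 28 alternative fits over the full set of probe sets 8 genes kept the call, and these 8 are named after their values were seen. Gpnmb, a glycoprotein of phagocytic macrophages, read 4.17 and 3.51 uninjured and 4.67, 4.63 and 4.56 at 48 h in wild type cells and 4.47, 3.18 and 4.49 uninjured and 9.33, 9.18 and 8.41 at 48 h in Sdc4-/- cells, with 4.58 on the left-out array. The rise of 4.93 in Sdc4-/- cells (adjusted p = 5.88e-06) had no counterpart in wild type (0.78, adjusted p = 0.18), and the difference was -4.14 ± 0.48 (adjusted p = 0.000635; -4.39, adjusted p = 0.001, with all 18 arrays). Hccs, which attaches haem to cytochrome c, read 2.94 and 2.85 uninjured and 2.91, 2.88 and 2.91 at 48 h against 2.82, 3.22 and 2.78 uninjured and 5.49, 5.57 and 5.24 at 48 h (-2.49 ± 0.16, adjusted p = 1.16e-05). Kat6a, a histone acetyltransferase, read 6.31 and 5.84 uninjured and 4.32, 4.37 and 4.74 at 48 h against 4.76, 5.51 and 5.05 uninjured and 5.74, 6.12 and 5.79 at 48 h (-2.38 ± 0.32, adjusted p = 0.00178).

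For the other 5 genes the levels were low. Prdm4 (-2.13 ± 0.23), Carmil1 (-2.06 ± 0.21) and Rabl3 (-2.02 ± 0.12) read at most 3.09 on the arrays of the contrast other than those of Sdc4-/- cells at 48 h, where they read 3.99 to 4.81. For 2810002D19Rik the difference was -2.15 ± 0.18. Kctd14 alone lay above 0, at 2.67 ± 0.26 (adjusted p = 0.00019), and read 5.21, 5.50 and 5.71 on the Sdc4-/- uninjured arrays against 2.83 to 3.35 on the other arrays of the contrast. In 6 of the 8 genes (Gpnmb, Hccs, Prdm4, Carmil1, Rabl3 and 2810002D19Rik) the Sdc4-/- 48 h arrays thus stood above the other arrays of the contrast. The call was on 2 of 2 probe sets for Gpnmb, but on 1 of 2 for Hccs, Rabl3 and 2810002D19Rik. It was on 1 of 3 for Kat6a and 1 of 4 for Kctd14, while Prdm4 and Carmil1 had 1 probe set each.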

How the data were processed

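Sorted cells from 18 samples in 6 groups (wild type and Sdc4-/-, uninjured and at 12 h and 48 h) had been hybridised to Affymetrix mouse arrays. The deposited values are log2 expression values that the authors made with GCOS and GCRMA (versions not stated), 1 per probe set. They were used without further normalization. Of 45101 probe sets 34958 carried 1 gene symbol, 932 several and 9211 none, and a gene was read from its probe set with the highest mean (18194 genes). limma 3.58.1 in R 4.3.3 fitted 6 groups on 17 arrays (11 residual degrees of freedom). The contrast was (wild type 48 h - uninjured) - (Sdc4-/- 48 h - uninjured), with Benjamini-Hochberg adjustment over all probe sets and a call at an adjusted p under 0.05. The study does not number the wild type uninjured array it dropped; replicate 3 was taken from its clustering of the arrays.

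Genes named were the 15 largest called differences each way with a group mean of at least 6, up to 4 called members of each of 39 lists (or, where none was called, the 2 members with the highest mean), a few satellite cell and syndecan genes, and the 4 largest of the 47 probe sets. Not all of the members picked for lists without a call are described above. Members and lists were chosen with earlier results of these data known. The fits were tested on simulated data. Alternatives were all 18 arrays, the 4 groups alone, other moderation, weights and scalings, a minimum mean of 4, the mean of the hybridization controls as a covariate, a replicate block and each array left out. The authors' linear fold changes were not used. The number of arrays limits the precision. Scan headers showed different scan days for the uninjured arrays of the 2 genotypes, and those of the 48 h arrays were not used here.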

Additional observations from a re-analysis of the deposited data

Results flagged for a closer look

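The change at 48 h differed between the genotypes by the test of the difference itself for 527 probe sets above 0 and 1315 below 0. For 5 of the genes named by the rule the 2 genotypes also changed in opposite directions, each change past its own test. Tmem263 (-6.91), Zfp36 (-3.06) and Lims1 (-3.07) fell in wild type and rose in Sdc4-/- cells. Slc13a3 (7.27) and Il6ra (4.09) rose in wild type and fell in Sdc4-/- cells. The values in brackets are genotype differences on the log2 scale. The call was on 1 of 5 probe sets for Lims1, 1 of 4 for Slc13a3, 1 of 2 for Tmem263 and Il6ra and 1 of 1 for Zfp36. Of the 5, Zfp36 and Slc13a3 were also called with all 18 arrays, and Zfp36 and Tmem263 with the hybridization controls as a covariate. Rabl3 and 2810002D19Rik, named after their values were seen, had opposite changes past their own tests too, at low levels. They fell in wild type (-0.39 and -0.78) and rose in Sdc4-/- cells (1.63 and 1.37).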

How the results depend on the processing

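As reported, 1842 probe sets were called, 527 above 0 and 1315 below, and 2624 had a 2-fold difference at p under 0.01, which takes the fold and p of the study's threshold with p left unadjusted here. With all 18 arrays these counts were 201, 84, 117 and 1090. With the control mean as a covariate they were 243, 23, 220 and 1477, and with both 119, 62, 57 and 1165. With a minimum mean of 4 they were 680, 113, 567 and 1139. Calls above 0 numbered 1207 with the 4 groups alone, 340 with a trend and robust fit, 1142 of 2808 with array weights, 1508 of 2876 without moderation, 212 of 1105 after quantile normalization and 1441 with arrays shifted to a common 75th percentile. A shift by the median of expressed probe sets gave 25964 calls, 24958 of them above 0, with 16768 past that threshold. Leaving out 1 array gave 1125 calls (without wild type uninjured replicate 1) to 2160 (without wild type 12 h replicate 2), with 209 to 836 above 0, 916 to 1697 below and 1827 to 2775 past that threshold. Under the shift by the median of expressed probe sets the difference reversed for Birc5 (0.18) and Hs3st1 (0.30), and with 18 arrays and the covariate for Col6a3 (0.16). The cause of these changes was not tested. Of 113 named probe sets 79 were called, of which 15 held with all 18 arrays, 10 with the covariate and 33 in every fit with 1 array left out.

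A replicate block gave 1366 calls, 343 above 0 and 1023 below. Arrays with the same number did not deviate together (15 correlations from -0.18 to 0.19, 1 of them over 0.1), so the numbers were not taken to pair samples. With 2 wild type uninjured arrays, a large part of the calls depends on which of the 3 are kept.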
